A study of Mus musculus with 5 samples.

Results

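Gzma and Gzmb are the genes of granzymes A and B. They were taken by name, with every probe set that the array annotation gives them, and were chosen by the measured peak of Gzma in DN3 and pre-double positive thymocytes. Each gene had 1 probe set, so the members were 2 of 8251 genes and 2 of 12488 probe sets on the array. The choice used the signals of Gzma on all 5 arrays. Its levels and folds are therefore given as a description, with no test.

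The thymocytes came from male C57BL6 mice aged 5 weeks. Across the study 10 mice were used, and whether their RNA was pooled is not stated. All mice had the same genotype and no treatment is named. DN1, DN2, DN3 and preDP cells were sorted from blast enriched thymocytes as lineage negative and CD24 positive. DN1 was CD25 negative and CD44 high, DN2 CD25 positive and CD44 high, DN3 CD25 positive and CD44 low, and preDP (pre-double positive) CD25 negative and CD44 low. DP cells, double positive for CD4 and CD8, came from total thymocytes. For DP, stage and cell source cannot be told apart.

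Granzymes are serine proteases that cytotoxic T cells and natural killer cells store in granules on the proteoglycan serglycin. Perforin lets them into a target cell, where granzyme A cleaves after basic residues and granzyme B after aspartate. Cathepsin C removes a dipeptide from the stored precursors to activate them. In the thymus, cells pass from double negative (DN) stages, at which the T-cell receptor beta and gamma loci are rearranged, to the DP stage.

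The promoters of both genes are shown because Gzma was measured on all 5 arrays and Gzmb on 0. Each is the stretch of 250 bases before the transcription start in RefSeq's GRCm38.p6 annotation, read 5′ to 3′ on the minus strand. The window of Gzma is chr13:113100982-113101231 and that of Gzmb chr14:56262335-56262584. Capitals mark the E-box bound by E proteins, CAGGTG on either strand, in Gzma. In Gzmb they mark the Runx motif TGTGGT and the AP-1 motif TGANTCA.

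Gzma promoter: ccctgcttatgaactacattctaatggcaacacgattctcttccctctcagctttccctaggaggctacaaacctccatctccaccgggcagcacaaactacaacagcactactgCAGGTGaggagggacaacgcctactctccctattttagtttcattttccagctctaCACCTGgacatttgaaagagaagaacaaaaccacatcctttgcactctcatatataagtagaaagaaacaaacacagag
Gzmb promoter: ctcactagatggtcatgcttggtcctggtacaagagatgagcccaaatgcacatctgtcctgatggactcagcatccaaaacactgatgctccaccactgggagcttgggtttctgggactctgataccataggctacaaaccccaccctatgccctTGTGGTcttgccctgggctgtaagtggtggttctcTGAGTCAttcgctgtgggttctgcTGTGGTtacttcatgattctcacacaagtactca

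In the Gzma window the E-box stood 135 bases and 79 bases before the start, 2 matches in all, and 17.2% of 32817 promoter windows of this length held at least 1. The Gzmb window held no E-box of these letters. It held 2 matches of the Runx motif, 93 and 34 bases before the start, and 1 of the AP-1 motif, 58 bases before it. The Runx motif was also found once (1 match, on the other strand) in the Gzma window, and in 14.0% of all windows. The AP-1 motif was in 6.75% of all windows and not in that of Gzma. The Ets core GGAA had 3 matches in Gzma and 0 in Gzmb, and 93.4% of windows held it. Neither window held TGGGAA, the motif of RBPJ, which is the DNA-binding partner of Notch, and 21.6% of all windows did. Neither held the GATA factors' motif AGATAA, found in 9.99% of all windows. The Tcf and Lef motif CTTTGA, in 13.8%, was likewise in neither. Nor was the cAMP response element core TGACGT, in 6.46%, or the box TATAAA, in 12.4%. No match says only that these letters are not in these windows. Both strands were searched and no motif match overlapped another. These matches describe letters only, since the arrays measure no binding, and motifs and capitals were chosen with the array values known.

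Each population had 1 array, so no replicate SD or p-value can be given, and precision is limited by how few arrays there are. The values are probe set signals on a linear scale. Signals at or under the floor, 130.4, the median of all gene probe set values, were treated as unmeasured. As a guide to error, genes with several probe sets were taken and their brightest 2 compared: the SD over genes of the gap in log2 ratio lay between 0.43 and 0.61 over the 10 pairs of arrays. It rests on 548 to 604 genes and leaves out error shared by an array and variation between sorts or mice. Over the same pairs the 9 spiked controls had mean log2 ratios between -0.39 and 0.23. The 3' to 5' signal ratio of actin, a sign of RNA quality, was between 2.79 and 3.31. That of Gapdh was 2.04 in DN1, 1.92 in DP, 1.76 in DN3, 1.70 in DN2 and 1.39 in preDP. Both were lowest in preDP, and their part in the results was not tested.

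The labels were checked against genes of the stages. Il2ra, which encodes CD25, had a signal of 1156 in DN2 and 439 in DN3, and elsewhere it did not reach the floor. Ptcra, the pre-T-cell receptor chain, was 3692 in DN3 and under the floor in DN1 and DN2. Cd8b1 was 6242 in preDP and 28020 in DP, and Cd4 was 5096 in DP. The 8 genes listed for the DN3 stage were all above the floor in DN3, as were 7 of them in each of DN2, preDP and DP. Their summed signal was 27075 in DN3 and 36809 in DP, so this list does not set DN3 apart from later stages. In DN1, 9 of 10 listed neutrophil and myeloid markers were above the floor, with S100a8 at 33502. Among all 8251 genes, 4935, 4684, 4621, 4582 and 4522 were above the floor from DN1 to DP.

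Gzma was a gene of DN3 and preDP cells on these arrays. The DN1 signal was 261 and the DN2 signal 349, against 2902 in DN3 and 5036 in preDP, and DP had 215. All 5 signals were above the floor, and those of DN3 and preDP stood apart from the other 3. Between DN2 and DN3 the signal was 8.30-fold higher in DN3, a log2 ratio of 3.05 against an SD between probe sets of 0.44. From DN3 to preDP it was 1.74-fold higher, a log2 ratio of 0.80 against an SD of 0.43. Between preDP and DP it was 23.4-fold lower in DP, with a log2 ratio of -4.55 and an SD of 0.59. With a higher floor of 338.6, the 65th percentile, this fold was at least 14.9, because the DP signal then lay under the floor. In bulk samples like these, fewer cells with the transcript and less of it per cell cannot be told apart.

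**Figure D1:**
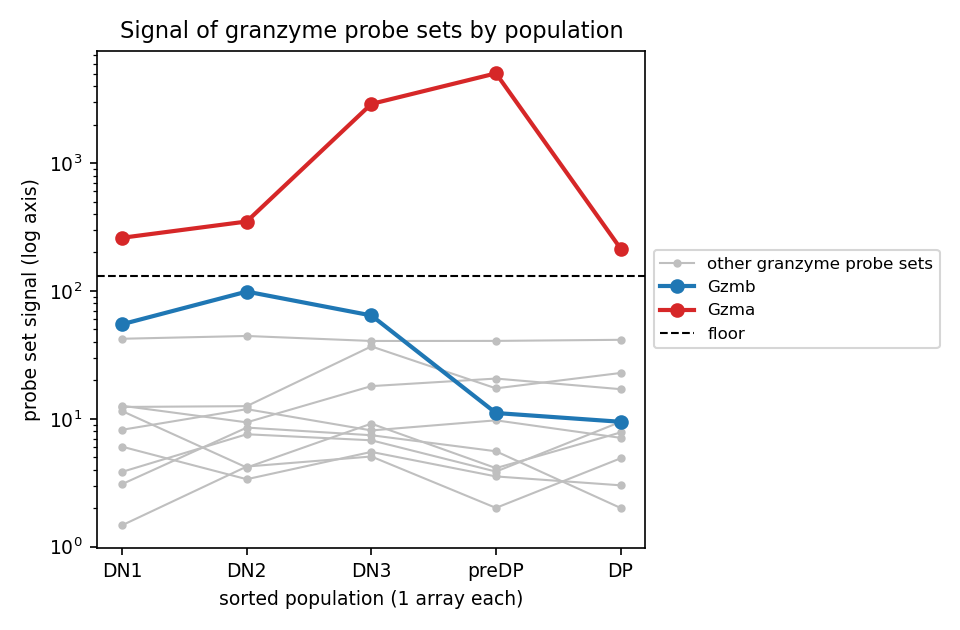
Signal of each granzyme probe set (vertical log axis) on the 1 array of each sorted population, with Gzma in red, Gzmb in blue, the other granzyme probe sets in grey and the floor of 130.4 dashed. Gzma was above the floor on all 5 arrays and highest in preDP at 5036, while every other granzyme probe set was under the floor on every array.

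In order of signal the populations were preDP, DN3, DN2, DN1 and DP. The steps from preDP to DN3 and from DN3 to DN2 were larger than the SD between probe sets. The lower end of the order is not settled. DN2 was 1.34-fold above DN1, a log2 ratio of 0.42 where the SD was 0.53. DP was 1.21-fold below DN1, a log2 ratio of -0.28 where the SD was 0.61. DP was 1.63-fold below DN2, a log2 ratio of -0.70 with an SD of 0.57. Under scaling to equal medians the DP signal was above that of DN1 by 0.11 on the log2 scale, so DN1 and DP have no fixed order. DN2 was above both under each of the 6 other settings, by 0.05 to 0.66 over DN1, while DP against DN2 was between -0.70 and -0.05. Among these, the lower floor and the mean over probe sets could not alter the Gzma ratios.

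Of the 10 pairs of populations, 6 were at least 2-fold apart in Gzma and 4 were not. The 6 were those that set DN3 or preDP against DN1, DN2 or DP. The shares of all measured genes called at that size in the same direction were 2.02% for DN3 over DN2, 2.82% for preDP over DN2, 7.13% for DN3 over DN1 and 10.7% for preDP over DN1. They were 10.8% for genes lower in DP than in DN3 and 11.7% for genes lower in DP than in preDP. Since the choice of Gzma used these contrasts, nothing is read from the comparison. In the pairs where Gzma was not called, 4.75% of genes were called higher and 8.56% lower in DN2 than in DN1. For DP against DN2 the shares were 9.86% and 12.7%, and for DP against DN1 11.9% and 13.9%. In the reverse direction to Gzma, 6.25% were lower in preDP than in DN2 and 10.4% higher in DP than in DN3, 11.1% lower in DN3 than in DN1 and 12.7% lower in preDP than in DN1. The folds were 11.1 for DN3 over DN1, 19.3 for preDP over DN1, 14.4 for preDP over DN2 and 13.5 for DN3 over DP. These pairs share arrays and are not independent of each other.

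Some genes differed by more than Gzma in the same comparisons. Between DN2 and DN3 these included Ptcra, at least 28.3-fold higher in DN3, Cd3d, a chain of the CD3 complex, at 24.5-fold, and Rag1, a subunit of the recombinase, at 15.0-fold. For preDP over DN2 they included the coreceptor genes Cd8b1, at least 47.9-fold higher, and Cd8a, at least 15.6-fold higher. Plac8, at 30.4-fold, and the T-cell receptor gamma variable gene Trgv4, at 28.2-fold or more, exceeded Gzma among genes lower in DP than in preDP. No rank of Gzma is given, because the ratio of a gene under the floor on 1 of the arrays is a lower bound and the gene may stand above Gzma.

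**Figure D2:**
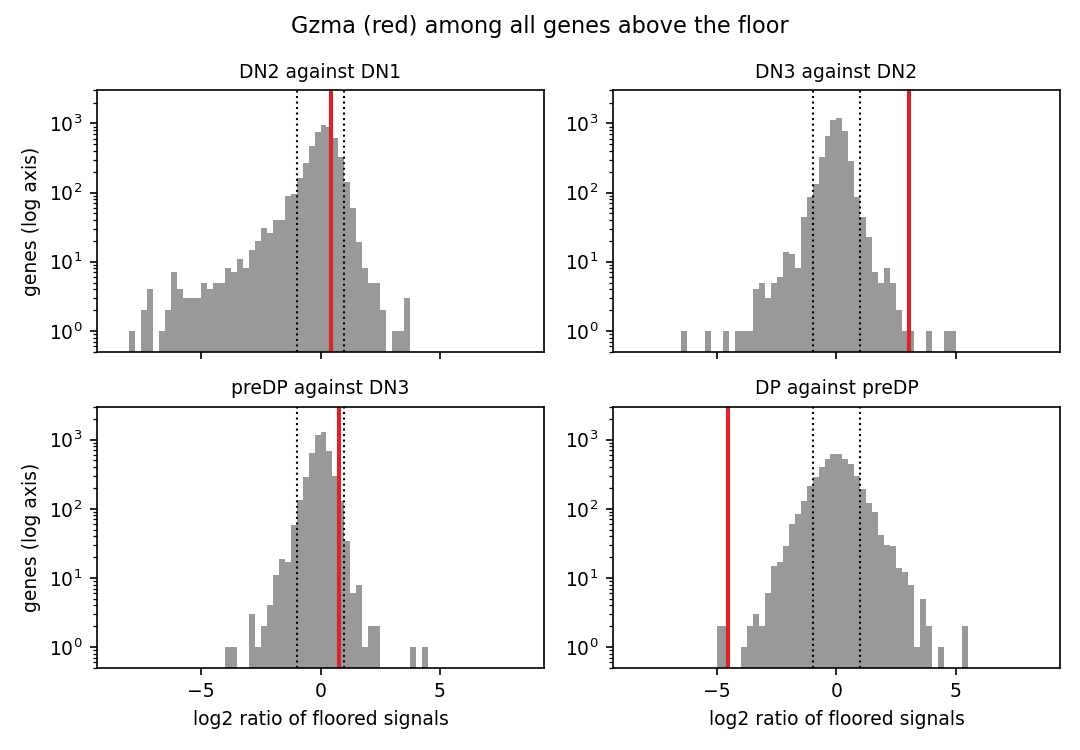
Number of genes (vertical log axis) by log2 ratio of floored signals for the 4 consecutive comparisons, over genes above the floor on either array, with dotted lines at 2-fold and Gzma in red. Gzma lay within the bulk of genes for DN2 against DN1 (0.42) and inside the 2-fold line for preDP against DN3 (0.80), and far out for DN3 against DN2 (3.05) and DP against preDP (-4.55).

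Few genes combined a step up at DN3 with a step down at DP. Gzma was chosen for this shape, so nothing is read from its being among them or from its gap. DN3 and preDP were both at least 2-fold above each of the other arrays for 7 genes, or 0.129% of 5443 measured. The gap of Gzma, between the lower of its 2 high arrays and the highest of the other 3, was 8.30-fold. Bcat1, a cytosolic aminotransferase of branched-chain amino acids, had a gap of at least 3.64-fold, a bound that leaves its order against Gzma unsettled, and Spats2 had one of 3.44-fold. Chchd3, a protein of the mitochondrial inner membrane, Smo, the signal transducer of the Hedgehog pathway, the neurofilament gene Nefh and the transcription factor gene Scx had gaps between 2.01-fold and 2.19-fold. Of the 2510 genes at least 2-fold apart between their highest and lowest array, 514 were highest in preDP, or 20.5%. DN3 was the highest array for 10.0%, so that 30.5% peaked in DN3 or preDP, against 25.3% in DN1, 11.6% in DN2 and 32.7% in DP. The range of Gzma was 23.4-fold, with all 5 signals measured.

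Gzmb stayed under the floor on all 5 arrays. DN2 had its highest signal, 98.9, DN3 had 64.4 and DN1 54.9, and the lowest were 11.1 in preDP and 9.49 in DP. As a background, the 15 unspiked control probe sets reached at most 67.6 on any array. Only the DN2 signal of Gzmb was above that level, and it too was under the floor. No fold is given for Gzmb, and it cannot be said from these arrays to be absent. The preDP array, on which Gzma was highest, had a lower Gzmb signal than the DN1, DN2 and DN3 arrays, but all of them lie where signals have no settled order.

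The remaining granzymes were also unmeasured. The array held 11 probe sets for the family, 10 of them with 1 gene symbol, which covered 8 of the 10 listed granzymes. Of these 8 genes, 7 were under the floor on every array. Among all 8251 genes, 5443 were above it on at least 1 array and the rest on none. Apart from Gzma and Gzmb, no granzyme probe set exceeded 44.5, the signal of Gzmg in DN2. Gzmk, a protease that like granzyme A cleaves after basic residues and the next protein-coding gene to Gzma on chromosome 13, was between 4.12 and 11.5. Gzmc and Gzmf, which lie beside Gzmb on chromosome 14, reached 9.46 and 36.9. The Gzmm signal was highest in preDP, at 20.7, and under the floor. Probe sets of Gzmd and of Gzmd with Gzme carry a suffix for sequences shared between genes and reached 8.54 and 11.9. Of the 10 protein-coding genes nearest to Gzma, 5 on each side, only Gzmk was on the array, so the surroundings of Gzma could not be followed.

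Genes that serve granzymes in cytotoxic cells did not share the course of Gzma. Perforin, Prf1, was under the floor on every array, with 59.2 and 13.2 in DN1 and DN2, 20.8 and 41.6 in DN3 and preDP, and 23.3 in DP. Serglycin, Srgn, was 869 and 875 in DN1 and DN2, 426 and 331 in DN3 and preDP, and 295 in DP. Its signal was 2.05-fold lower in DN3 than in DN2, where Gzma was higher. Cathepsin C, Ctsc, read by its brightest probe set, was 555 in DN1 against 214, 228, 292 and 242 in DN2, DN3, preDP and DP, and was nearly level over the last 4. Its second probe set gave 362 in DN1 and at most 141 elsewhere, while a further one was highest in DN3, at 161.

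At the step where Gzma was higher, the granule gene Cst7 differed the other way. Cst7 encodes cystatin F, an inhibitor of cysteine cathepsins in the granules of cytotoxic and myeloid cells. It gave 1695 and 2225 in DN1 and DN2, then 106 and 136 in DN3 and preDP, and 12.9 in DP. Against DN2 the DN3 signal was at least 17.1-fold lower. Ctsh, cathepsin H, was 2580 in DN1 and under the floor from DN2 on. Lamp2, a lysosomal membrane protein, was 2.19-fold lower in DN3 than in DN2 and 2.06-fold higher in DP than in preDP. Its second probe set was under the floor on every array. Of the 15 listed genes for granule delivery and processing, 11 were on the array and 7 measured for DN3 against DN2. Of these, 3 were at least 2-fold lower and 0 higher, where 3.94% and 2.02% of all genes were. The list's median log2 ratio was -0.03, against 0.00 for all genes. For preDP against DN3, 0 of 7 measured members were 2-fold apart, where 1.14% of all genes were higher and 2.42% lower.

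**Figure D3:**
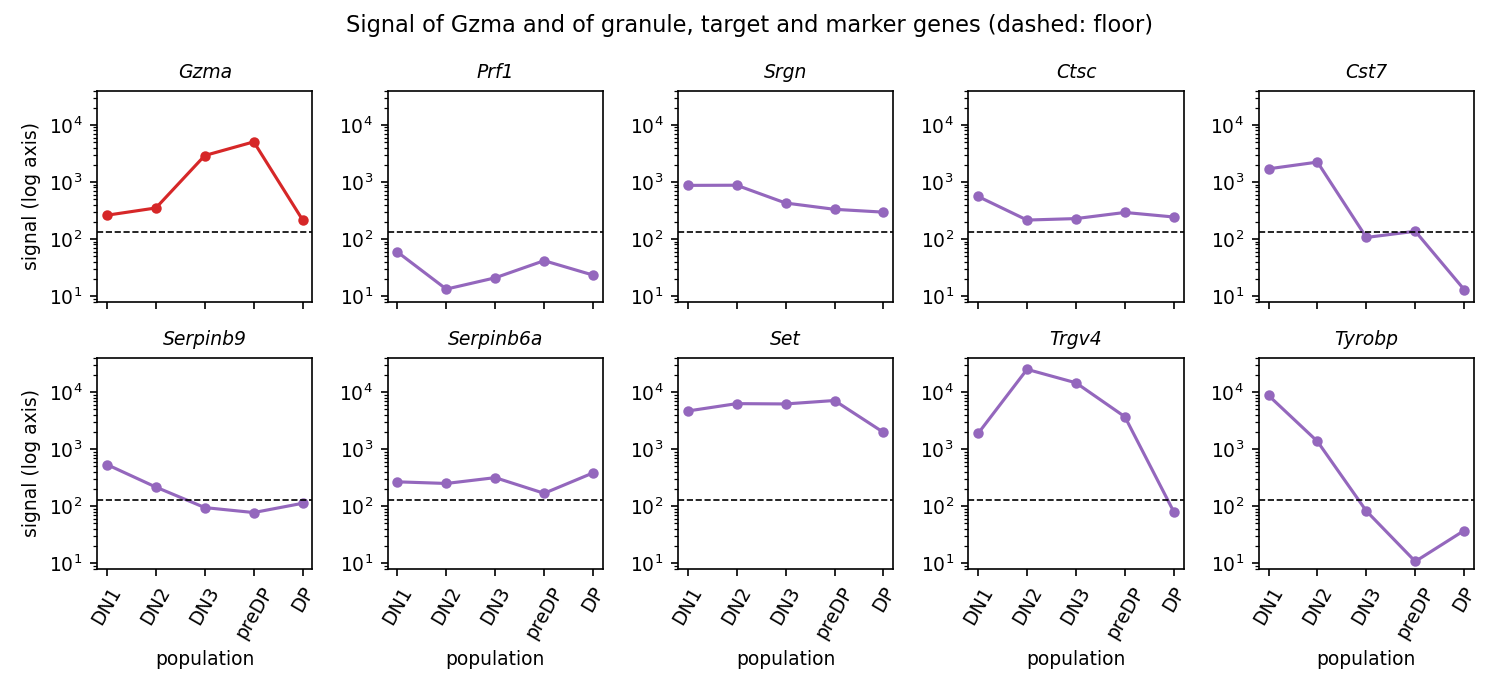
Signal (vertical log axis) of Gzma, of granule genes (Prf1, Srgn, Ctsc, Cst7), of inhibitor genes (Serpinb9, Serpinb6a), of Set and of the marker genes Trgv4 and Tyrobp on the 1 array of each population, with the floor dashed. Between DN2 and DN3, where Gzma was higher, Srgn, Cst7, Trgv4 and Tyrobp were lower, while Ctsc (214 and 228) and Serpinb6a (250 and 316) were not, and Prf1 was under the floor throughout.

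The measured inhibitors of granzymes differed in their course. Serpinb9, the inhibitor of granzyme B, was 535 in DN1, 216 in DN2 and unmeasured in DN3, preDP and DP. It was 2.48-fold lower in DN2 than in DN1. Serpinb6a, a serpin of the same clade, was 267, 250 and 316 in DN1, DN2 and DN3, with 168 in preDP and 382 in DP. Its signal was lowest where Gzma was highest and 2.28-fold higher in DP than in preDP. Of 8 listed inhibitors 5 were on the array, and 0 of the 3 measured for DN3 against DN2 were 2-fold apart, where 2.02% of all genes were higher and 3.94% lower. Their median log2 ratio was -0.12, against 0.00 for all genes.

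Transcripts listed for granzyme A targets, among them members of the SET complex, were present on all arrays. The complex holds the nuclease Nme1, the repair enzyme Apex1, Anp32a, Hmgb2 and Set itself. The list does not tell members that are cleaved from those that are only part of the complex. All 6 listed genes on the array were above the floor in each population, as were 4000 of all 8251 genes. Set was 4647 in DN1, between 6179 and 7098 in the next 3 populations, and 1964 in DP. For DN3 against DN2, 0 of 6 were 2-fold apart, where 2.02% of all genes were higher and 3.94% lower. The probe sets of Anp32a disagreed there, since the dimmer one was 576 in DN2 and 2673 in DN3 and the brighter 2081 and 1703. For preDP against DN3 1 of 6 was, the lamin gene Lmnb1, which was 2.22-fold higher, where 1.14% of all genes were higher and 2.42% lower. For DP against preDP, 3 of 6 were at least 2-fold lower and 0 higher, with a median log2 ratio of -1.35. Over all genes of that comparison 11.7% were lower and 11.3% higher, with a median of 0.01. The 3 were Apex1 at 6.42-fold, Nme1 at 4.85-fold and Set at 3.61-fold. Of the 5 measured granzyme B target genes, 1 was 2-fold apart between DN2 and DN3, Casp8, 2.78-fold lower in DN3, where 3.94% of all genes were lower. Against preDP, Bid was 2.27-fold and Parp1 2.49-fold lower in DP, and Mcl1 was 2.66-fold higher.

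Among 18 listed regulators of cytotoxic genes, 14 were on the array. Eomes and Prdm1, which drive effector programmes in lymphocytes, were under the floor on every array, with highest signals of 18.0 and 54.2. Il2rb, the interleukin 2 and 15 receptor chain of natural killer cells, was at most 125. For DN3 against DN2, 1 of 11 measured members was at least 2-fold higher and 1 lower, where 2.02% and 3.94% of all genes were. The higher one was Id3, an inhibitor of E proteins, at least 6.33-fold higher. Id3 was 302 in DN1, under the floor in DN2, then 825 in DN3, 1304 in preDP and 1917 in DP, so it did not share the lower signal of Gzma in DP. The lower one was Stat4, at 2.24-fold. Gata3, whose DN2 signal was 3.21-fold that of DN1, was between 1223 and 1517 from DN2 to DP.

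The measured granule proteases of other lineages had their highest signals before Gzma. Cpa3, a mast cell protease, was 926 in DN1 and 4451 in DN2, against 303 in DN3, 179 in preDP and 2.78 for DP. The DN3 signal was 14.7-fold below that of DN2. The neutrophil proteases Elane, Prtn3 and Ctsg were 4569, 3124 and 694 in DN1 and under the floor on the other arrays. Of 11 listed proteases, 6 were above the floor in DN1, 2 in each of DN2, DN3 and preDP, and 0 in DP. Among all 8251 genes, 4935, 4684, 4621, 4582 and 4522 were above it from DN1 to DP, so the DN1 count is no excess.

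Markers of cells that are known to hold granzyme A were read on the same arrays. Of 18 listed natural killer and innate lymphoid markers, 14 were on the array. Of these, 7 were above the floor in DN1, 3 in DN2 and 1 in preDP, and 0 in DN3 or DP. Among all 8251 genes, 4935 were above it in DN1 and 4684 in DN2, so the 7 of 14 in DN1 are no excess. Their summed signal was 12011 in DN1 and 2505 in DN2, and 504, 607 and 476 in the later 3 populations. The 1 marker above the floor in preDP was the chemokine gene Xcl1, at 173. Tyrobp, a signalling adaptor of natural killer and myeloid cells, was 8706 in DN1, 1362 in DN2 and unmeasured in the later populations. Klrd1, which encodes CD94, had a signal of 338 in DN1 and was unmeasured elsewhere, and Ncr1 was at most 18.1. The chemokine gene Ccl5 likewise was 1678, then 607, then unmeasured. The part of such cells in the DN1 and DN2 signals of Gzma was not tested.

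Markers of gamma delta T cells, another kind of thymocyte, were measured together with Gzma in DN3 and preDP. Of 14 listed, 6 were on the array, and 4 of these were above the floor in DN1, DN3 and preDP, 5 in DN2 and 1 in DP. Among all 8251 genes, 4621 were above it in DN3 and 4582 in preDP. The 4 of 6 are near that share, and nothing is read from them. The summed signal was 6393, 33791, 25825, 8687 and 732 from DN1 to DP. Trgv4 was 1879 in DN1, highest in DN2 at 24961, and 14496, 3680 and 79.4 after that. Trgv1 was 1143, 6958, 9748, 3009 and 102 over the same arrays. From DN2 to DN3 the markers did not go one way, since Trgv4 was lower and Trgv1 and Blk higher. From DN3 to preDP, Trgv4 was 3.94-fold and Trgv1 3.24-fold lower, where Gzma was 1.74-fold higher. In DP all 3 had their lowest signal. Sox13, a transcription factor of gamma delta cells, was highest in DN1 at 1327, with 886 in DN3 and 1101 in preDP. The kinase gene Blk was also highest in DN1, at 1956, with 585 in DN2, 681 in DN3 and 850 in preDP. Its dimmer probe set was 306 in DN1, 142 in DN2, 185 in DN3 and 166 in preDP. Zbtb16 and Il17a were under the floor in DN3 and preDP. The gamma locus is rearranged at DN stages, so Trgv1 and Trgv4 transcripts of gamma delta cells and of other DN cells cannot be told apart here. The part of gamma delta T cells in the Gzma signal was not tested.

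Most markers of mature CD8 and effector T cells on the array were under the floor where Gzma was high. Of 9 on the array, 7 were above the floor in DN1 and 2 in each of DN3, preDP and DP. Among all 8251 genes, 4935, 4684, 4621, 4582 and 4522 were above it from DN1 to DP. The marker counts that follow have the same background, and nothing is read from them alone. The summed signal was 17298 in DN1, 3677 in DN2 and lowest in DN3 at 813, with 1732 in preDP and 7489 in DP. The 2 in DN3 and preDP were Cd52 and Itgb7, which were 2.57-fold and 2.04-fold higher in preDP than in DN3. Fasl, the death ligand of cytotoxic cells, was 291 and 282 in DN1 and DN2, and at most 11.8 later. Ifng was at most 37.0 on any array. Of the 8 mast cell markers, 4 were above the floor in DN1, 3 each in DN2 and DN3, 2 in preDP and 0 in DP. Among them Kit was 254 in DN3 and under the floor in preDP. None of the 10 neutrophil and myeloid markers was above the floor in DN3, preDP or DP, and their summed signal was 425 in DN3 and 234 in preDP. Of 5 B-cell markers on the array, 5 were above the floor in DN1, 2 in DN3 and 3 each in DN2, preDP and DP. Their summed signal was 58140 in DN1, 4088 in DN2, and 5611, 7455 and 9941 in DN3, preDP and DP. Ighm, by its brightest probe set, was 52870 in DN1, 3009 in DN2, 4110 in DN3, 6792 in preDP and 8496 for DP. Its probe sets did not share that course. Over DN2, DN3 and preDP another was 1799, 1693 and 3785, and a further one 185, 86.1 and 59.6. Cd79b was 830, 1234 and 305 over the same arrays. Cd79a, Ms4a1 and Pax5 were at most 148 from DN2 on. The part of B cells in the Gzma signal was not tested.

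The genes with the course most like that of Gzma were sought by the root mean square distance between floored log2 profiles over the 5 arrays, each centred on its mean. Among 2348 genes above the floor on at least 2 arrays and at least 2-fold apart between arrays, Bcat1 came first, at a distance of 0.80. Its signal was 474 in DN3 and 827 in preDP, against 20.5, 39.5 and 32.6 in DN1, DN2 and DP, so it was measured in DN3 and preDP alone. Spats2 was second, at 0.91, with 514, 716, 3592, 3600 and 1044. Idi1, an enzyme of isoprenoid and cholesterol synthesis, followed with 547, 1280, 1932, 2362 and 297.

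The other genes among the nearest 10 were Maoa, Myc, Nefh, Rcc1, Timm8a1, Chchd3 and Timm9. Maoa encodes monoamine oxidase A, Rcc1 the exchange factor of the GTPase Ran, and Timm8a1 and Timm9 small chaperones of mitochondrial import. Myc, a transcription factor of growth, was 463, 597, 1014, 1347 and 84.1 from DN1 to DP. Of the 10 genes, 8 were highest in preDP and 2 in DN3. They were picked for nearness to Gzma, so nothing is read from these peaks. Pearson's r with Gzma over the 5 arrays was between 0.83 and 0.99 for them, as a description of 5 points that share the same arrays. Spats2 and Idi1 were among the nearest 10 under each of the 6 other settings that give Gzma a value, and Bcat1 and Myc under 5 of them. None of the listed granule, inhibitor or natural killer genes was among the nearest 10. With 10 places among 2348 genes, nothing is read from this. Prf1 and most listed natural killer and inhibitor genes could not appear, because they did not meet the conditions for entering the search.

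**Figure D4:**
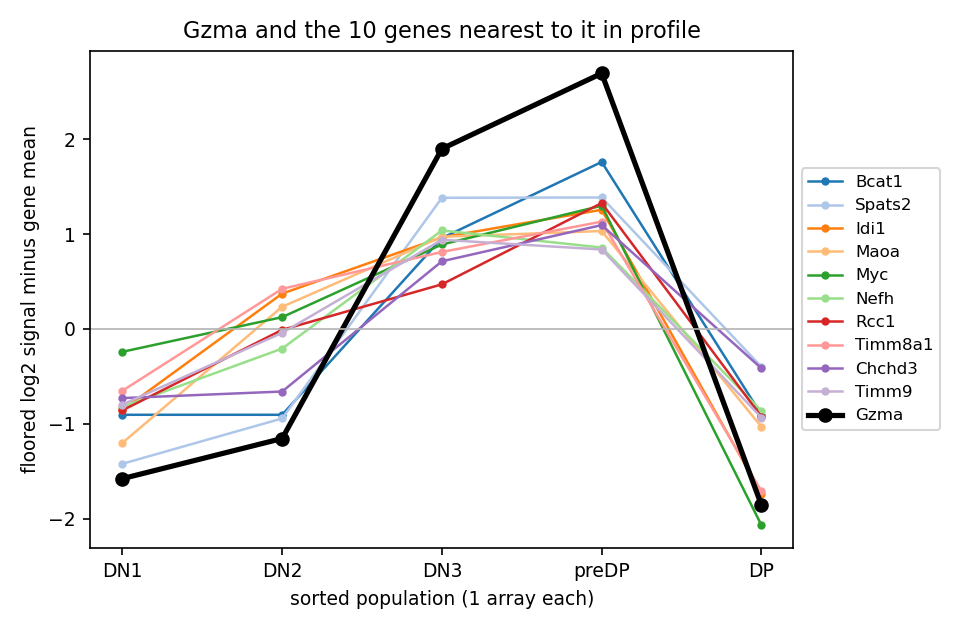
Floored log2 signal minus the gene's mean (vertical axis) on the 1 array of each population, for Gzma in black and the 10 genes nearest to it in colour. The 10 genes, picked for nearness to Gzma, had their highest value in DN3 or preDP like Gzma. Values under the floor are drawn at the floor, so that spans such as that of Bcat1 are lower bounds beside the 4.55 of Gzma on the log2 scale.

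The ratios of Gzma were computed again under 6 other settings of scaling, floor and probe sets. The lower floor and the mean over probe sets could not alter them, so they are no check of Gzma. For DN3 against DN2 the log2 ratio was between 2.74 and 3.09, and for preDP against DN3 between 0.77 and 0.84. For DP against preDP it was between -4.55 and -3.89, the last with the higher floor. For DN2 against DN1 it was between 0.05 and 0.66. The 1 probe set of Gzma carries the suffix _s_at, which marks probes that may match more than 1 transcript. With such probe sets left out, Gzma had no value, so the signal has no check from a second probe set.

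**Figure D5:**
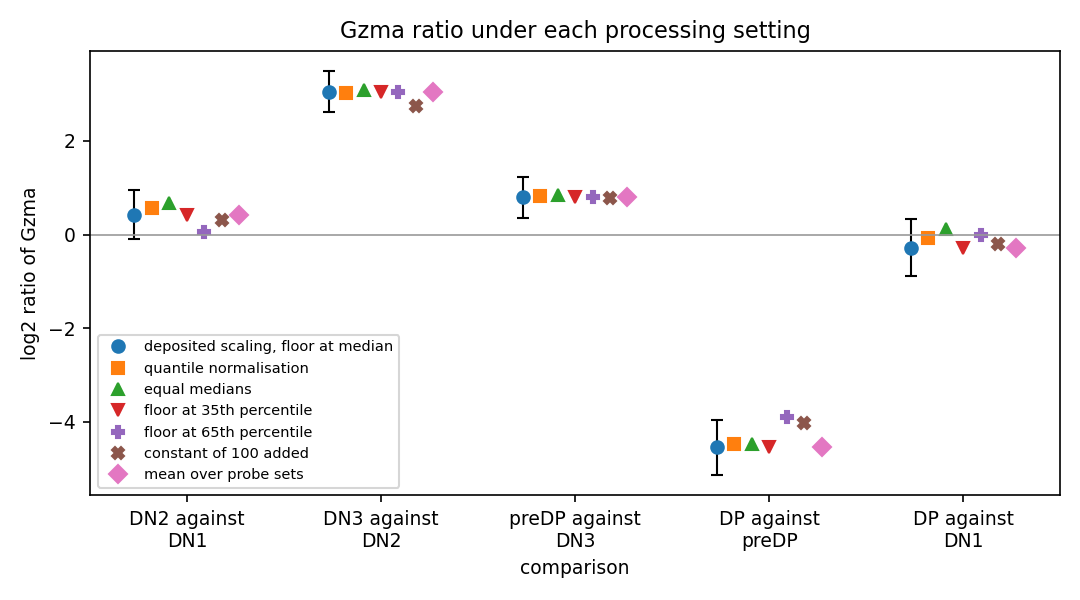
Log2 ratio of Gzma (vertical axis) for the 4 consecutive comparisons and DP against DN1 under the deposited scaling with its floor and under 6 other settings, 1 symbol each, with a bar of 1 SD between probe sets on the first. The symbols for DN3 against DN2 (2.74 to 3.09) and DP against preDP (-4.55 to -3.89) lay far from 0, and those for DP against DN1 lay on both sides of it.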

How the data were processed

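RNA of 5 sorted thymocyte populations was hybridised to Affymetrix arrays, 1 per population. Per the submitters' processing notes the authors used Affymetrix Expression Console 1.0 and MAS5, and what they deposited is 1 linear signal intensity per probe set and array. Each array has a trimmed mean (2% off either end) of 500.3 to 500.4, a common scaling that hides differences in total mRNA between populations. Gene symbols came from the platform annotation. Among 12488 probe sets, 10833 named 1 gene, 396 named several, 1193 named none and 66 were controls. Symbols were checked through gene identifiers against RefSeq's GRCm38.p6 gene table, which matched 10817 of the 10833 and altered 0.

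Values were used as deposited, set to the floor (50th percentile, 130.4) where lower, and taken to log2. A gene with several probe sets was read by the one with the highest mean. Probe sets with several symbols were used only where named. A fold against a floored value is given as at least that size. No test was possible. Genes were counted at 2-fold.

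The members and gene lists were chosen with earlier results of these data known. Named genes are all granzymes, list members 2-fold apart in a consecutive comparison (up to 4 per list, by range), the 10 nearest profiles, and Prf1, Srgn and Ctsc. Other names were chosen after their values were seen. The counting and profile steps were tested on simulated data. Alternatives were quantile normalisation, equal medians, floors at the 35th and 65th percentile, an added constant of 100, the mean over probe sets, and plain probe sets alone. Python 3.11.15 was used with numpy 2.4.6, pandas 2.3.3 and matplotlib 3.10.9. Both promoter windows came from RefSeq's GRCm38.p6.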

Additional observations from a re-analysis of the deposited data

How the results depend on the processing

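Each population had 1 array, so no replicate could be left out. No paired analysis was possible because no population has a second array. Scaling, the higher floor and the added constant moved the Gzma ratios by less than the SD between probe sets in the consecutive comparisons and in DP against DN1, with 1 exception. The lower floor and the mean over probe sets could not alter them, since Gzma has 1 probe set and its 5 signals exceed 46.3. With the floor at the 65th percentile, 338.6, the log2 ratio of DP against preDP was -3.89 and Gzma was above the floor on 3 arrays in place of 5. With the floor at the 35th percentile, 46.3, Gzmb was above it on 3 arrays in place of 0. The Gzmb log2 ratio was then 0.85 (DN2 against DN1), -0.62 (DN3 over DN2) and -0.48 (preDP over DN3), and for preDP over DN3 it was -0.565 with a constant of 100 added. The 7 genes with DN3 and preDP both at least 2-fold above the other arrays became 12 with the lower floor, 4 with the higher floor and 4 with the constant. Counts of genes 2-fold apart moved as follows. With the lower floor, 379 genes were higher and 685 lower in DN2 than in DN1, 209 and 317 in DN3 than in DN2 (99 and 193 as reported), and 151 and 256 in preDP than in DN3 (55 and 117). With the higher floor, 262 were lower in DN2 than in DN1, 51 higher and 101 lower in DN3 than in DN2, 30 and 63 in preDP than in DN3, and 438 lower in DP than in DN1 (723). With the constant, 157 were higher in DN2 than in DN1. With equal medians 1193 were higher in DP than in DN1 in place of 619, or 69.8% of those called in place of 46.1%, and the median log2 ratio was 0.53 in place of 0.16. With equal medians, 524 genes were higher and 347 lower in DN2 than in DN1, in place of 245 and 441, and the median log2 ratio of genes on both arrays was 0.41 in place of 0.18. Of the 10 genes nearest to Gzma, 4 were among its nearest 10 with the higher floor and 6 with the constant. Plain probe sets alone gave no value for Gzma. Signals under the floor limit what can be said of Gzmb and the other granzymes.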
